A study of Mus musculus with 24 samples.

Results

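Transcripts of 8 genes of the pathway that runs from phosphoinositide 3-kinase (PI3K) through Akt to mTOR were followed in motor neurons that had been differentiated from embryonic stem cells (mESCs) of the mouse. The genes were Akt1, Akt2, Pik3ca, Pik3cb, Pik3r1, Pdpk1, Mtor and Tsc2. They were chosen by name as core members of the pathway, they were all found by symbol, and they are 8 of 22889 gene entries in the table of the study. The study compared oculomotor neurons, which are spared in amyotrophic lateral sclerosis, with spinal motor neurons, which degenerate. Transcripts of these genes say nothing of the phosphorylation through which the pathway is switched on, which was not measured in these libraries.

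There were 24 SMART-seq2 libraries in 4 groups of 6. Oculomotor cultures came from an Islet1-GFP/NesEPhox2a mESC line, in which a nestin enhancer drives Phox2a in neuronal progenitors, and were patterned for 5 days with 250 nM of the hedgehog agonist SAG and 100 ng/ml FGF8. Spinal cultures came from an Hb9-GFP mESC line and were patterned for 5 days with 500 nM SAG and 100 nM retinoic acid. Cells of each culture were sorted by FACS into a GFP-positive and a GFP-negative fraction. The line, its reporter gene and the patterning factors differed together between the cultures, so their parts in any difference between oculomotor and spinal samples cannot be told apart. Whether the replicates of a group came from separate differentiations was not stated in the labels, so that p values measure the spread between these samples.

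PI3K is recruited to activated growth factor receptors and makes the membrane lipid PIP3. Pik3ca and Pik3cb encode its catalytic subunits p110α and p110β, and Pik3r1 encodes the regulatory subunit p85α, which holds the catalytic subunit stable and brings it to the receptor. PIP3 brings the kinases PDK1 (Pdpk1) and Akt (Akt1, Akt2) together at the membrane, where PDK1 phosphorylates Akt. Akt in turn inhibits tuberin (Tsc2), a brake on the kinase mTOR (Mtor), which promotes protein synthesis and cell growth. In neurons the pathway is known for survival signaling downstream of trophic factors and for growth of axons and cell bodies.

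Values are RPKM, read counts scaled by transcript length and by the mapped reads of the library, which puts genes of different length on one scale. They are not corrected for GC content. Levels of some members moved with a GC trend of the libraries (below), which limits the orders and ratios of levels between genes. Differences were tested as log2(RPKM + 1) with limma, adjusted over all genes tested by the method of Benjamini and Hochberg, and are called where the adjusted p is under 0.05. With the offset of 1, changes of genes at about 1 RPKM or less come out too small. Depth, estimated from the steps between low RPKM values, ran from 752529 to 4642207 reads in replicates 1 to 4 and from 4822576 to 7675428 in replicates 5 and 6. At these depths and the length of the longest transcript, a library held a median of about 280 reads of Pik3ca and 208 of Akt1, but only 21.2 of Pik3cb and 23.6 of Pik3r1.

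Markers were checked in each fraction. The summed RPKM of 8 neuron markers was 1460 to 2124 in oculomotor GFP-positive samples against 21.0 to 68.0 in the GFP-negative ones, and Chat was at 0 in all of the latter. In spinal cultures the sums were 87.8 to 2064 in GFP-positive and 62.7 to 282 in GFP-negative samples. The spinal GFP-positive replicate 4 held the 87.8, and the other 5 samples of its group began at 457. The libraries labelled spinal replicate 4 went against their labels in Mnx1, while other motor neuron markers were mixed. Mnx1, whose other name Hb9 the spinal reporter carries, was at 69.4 RPKM in the one labelled GFP-negative and 43.1 RPKM in the one labelled GFP-positive, while it was 0.19 to 4.72 RPKM in the other 5 GFP-negative and 55.8 to 149 RPKM in the other 5 GFP-positive samples. The sum of 10 motor neuron markers, of which Mnx1 made up most, was 93.2 RPKM in the former and 64 RPKM in the latter. Chat followed the labels (1.42 RPKM in the former, 3.92 in the latter). Isl1 was close (8.56 and 7.63 RPKM), and Slc18a3 went against them (2.83 and 0.95 RPKM). Both libraries were kept under their labels, and results that rest on spinal samples are also given without both. In the spinal GFP-negative replicate 2, 3 gene models held 68.8% of the summed RPKM, against at most 17.8% in any other sample. Between oculomotor GFP-positive and GFP-negative samples, cycling markers (8 genes, 68.7 to 377 against 304 to 597) and pluripotency markers (6 genes, 0.3 to 259 against 684 to 9877) differed along with the neuron markers, and their part in the differences between fractions below was not tested. In sorted bulk samples, fewer cells of a type and less RNA per cell cannot be told apart. The fractions of the same culture type and replicate number deviated from their group means together (over 9339 genes, r was 0.44 to 0.80 for the oculomotor pairs and 0.44 to 0.70 for the spinal ones), and they are treated below as 6 pairs per culture type. The labels do not say that the fractions of a pair came from one culture. Oculomotor and spinal GFP-positive samples, which share only a number, had r of −0.22 to 0.78. The correlations therefore do not show a shared culture, and results of the paired fits rest on this assumption.

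Akt1 had the highest mean level of the 8 genes in all 4 groups, and Pik3ca came next in each. In oculomotor GFP-positive samples the order of the means was Akt1, Pik3ca, Mtor, Tsc2, Pdpk1, Akt2, Pik3r1 and Pik3cb. Akt1 lay above Pik3ca there in 6 of 6 samples, Pik3ca above Mtor in 6 and Tsc2 above Pdpk1 in 6. The neighbors Mtor and Tsc2 (5 of 6), Pdpk1 and Akt2 (4 of 6), Akt2 and Pik3r1 (4 of 6) and Pik3r1 and Pik3cb (4 of 6) did not keep their order in every sample. In spinal GFP-positive samples Akt1 lay above Pik3ca in only 3 of 6, and without replicate 3 Pik3ca had the higher mean of that group. The order of Akt1 over Pik3ca in the other groups held in 6 of 6 oculomotor GFP-negative and 4 of 6 spinal GFP-negative samples.

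**Figure D1:**
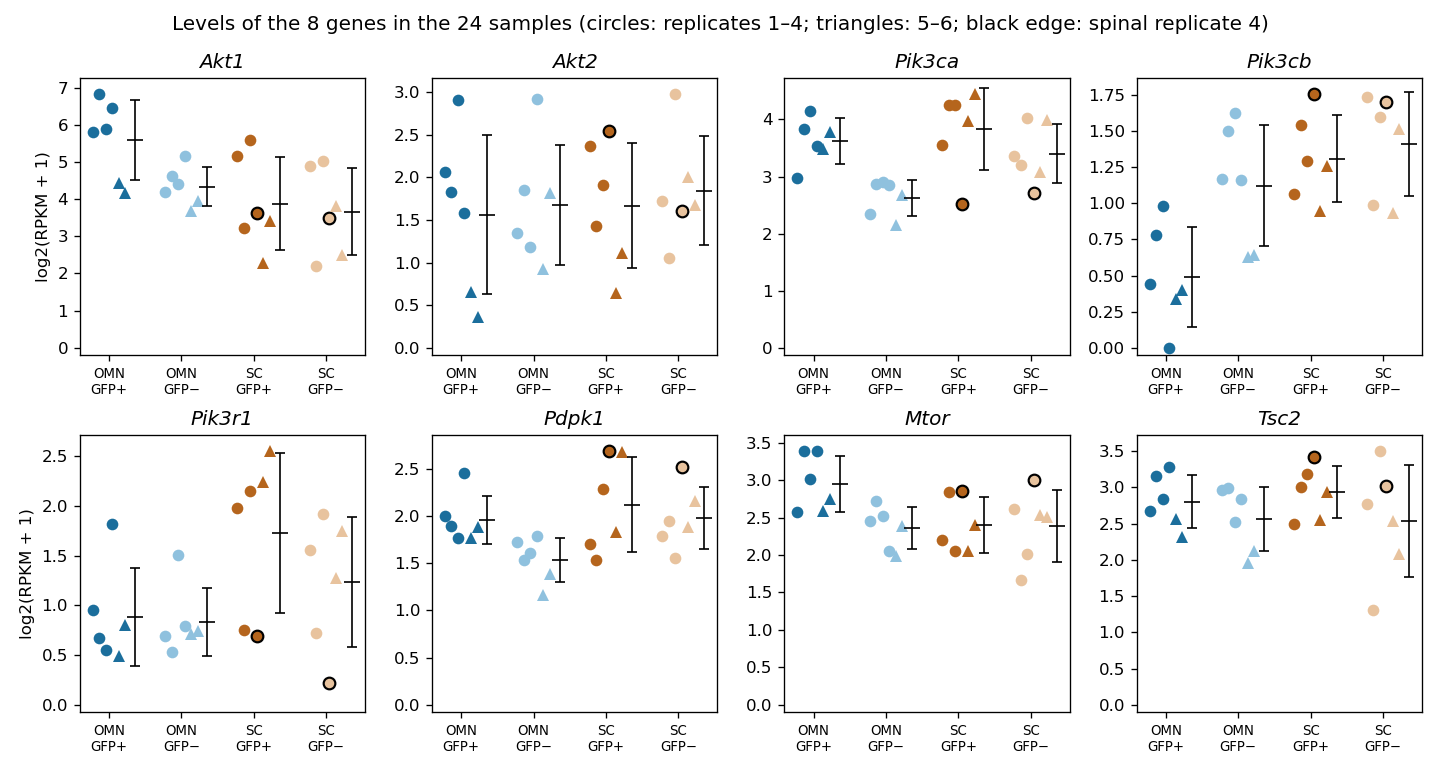
Levels of the 8 genes as log2(RPKM + 1) (vertical axes, each scaled to its gene) in the GFP-positive (GFP+) and GFP-negative (GFP−) fractions of oculomotor (OMN) and spinal (SC) cultures. Each symbol is 1 of 24 samples, bars give mean ± SD (n = 6). Akt1 lies highest in OMN GFP+, with replicates 5 and 6 (triangles) lower than the rest, and Pik3cb lies lowest there.

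The promoters of Akt1, Pik3ca and Pik3cb, the members called further down between the oculomotor fractions, are shown to let their sequences be set side by side, since no binding or chromatin data accompany these libraries. Each is the 250 bases before the outermost RefSeq start site of the gene (GRCm38.p6), in the direction of transcription, with motif matches in capitals. The 8 members have 14 such windows in RefSeq, and only 1 per gene is shown. RefSeq and GENCODE, which gave the gene positions, differ in start sites. The Pik3cb window lies inside the GENCODE gene, which ends at 99140621. The RefSeq start of Pik3ca (32397065) lies before the GENCODE start (32397671). Which start sites these cells use was not tested. The motifs searched on both strands were the GC box GGGCGG, the CCAAT box CCAAT, the E-box CACGTG, the FoxO motif GTAAACA and the cAMP response element TGACGTCA. No 2 different motifs overlapped in these windows. Of 32851 RefSeq promoter windows of the same length, 32.7%, 33.8%, 6.0%, 3.2% and 1.5% held the respective motif.

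Akt1 (chr12:112674885-112675134, minus strand): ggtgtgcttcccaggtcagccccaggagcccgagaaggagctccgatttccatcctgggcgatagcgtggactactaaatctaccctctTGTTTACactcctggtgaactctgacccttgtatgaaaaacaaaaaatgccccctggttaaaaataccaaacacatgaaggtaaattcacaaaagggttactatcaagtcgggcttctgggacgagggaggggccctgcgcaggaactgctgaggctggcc

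Pik3ca (chr3:32396815-32397064, plus strand): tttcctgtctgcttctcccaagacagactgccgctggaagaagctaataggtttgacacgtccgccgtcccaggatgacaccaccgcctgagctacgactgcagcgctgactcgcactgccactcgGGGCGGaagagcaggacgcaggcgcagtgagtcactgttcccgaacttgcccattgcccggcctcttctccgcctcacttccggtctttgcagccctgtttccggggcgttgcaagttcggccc

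Pik3cb (chr9:99140212-99140461, minus strand): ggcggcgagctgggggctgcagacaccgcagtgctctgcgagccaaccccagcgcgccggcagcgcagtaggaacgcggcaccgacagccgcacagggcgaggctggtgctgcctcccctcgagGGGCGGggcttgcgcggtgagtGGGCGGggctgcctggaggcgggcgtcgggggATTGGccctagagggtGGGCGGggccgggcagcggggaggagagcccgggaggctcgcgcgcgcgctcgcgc

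The Akt1 window had 7 CpG dinucleotides and a match to the FoxO motif, on the opposite strand. FoxO factors are excluded from the nucleus when Akt is active. The Pik3ca window had 19 CpG dinucleotides and 1 GC box. The Pik3cb window had 32 CpG dinucleotides, 3 GC boxes and a CCAAT box on the opposite strand. A match is a match of letters and was not tested for function.

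Akt1 (ENSMUSG00000001729.14, GRCm38 chromosome 12, 112653821 to 112674884, minus strand), the Akt isoform with the highest level here, is a serine/threonine kinase. In oculomotor neurons its level was 55.4, 113, 58.4, 86.6, 20.7 and 16.8 RPKM in replicates 1 to 6, and in spinal motor neurons 34.8, 8.29, 47.1, 11.3, 3.85 and 9.57 RPKM. Replicates 1 to 4 of the oculomotor neurons lay above every spinal sample, while replicates 5 and 6 lay within the spinal range. The means were 58.5 ± 37.3 and 19.2 ± 17.5 RPKM (SD, n = 6 each). The GFP-negative fractions held 20.4 ± 8.1 RPKM in oculomotor and 15.3 ± 12.0 RPKM in spinal cultures (SD, n = 6 each), with ranges of 11.8 to 34.5 and 3.60 to 31.5 RPKM.

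Akt2 (ENSMUSG00000004056.15, chromosome 7, 27591552 to 27640826, plus strand), the isoform best known from insulin signaling, was low everywhere. Its mean in RPKM was 2.51 ± 2.24 for oculomotor neurons, 2.52 ± 1.69 for spinal motor neurons, and 2.56 ± 2.07 and 2.92 ± 2.04 for the respective GFP-negative fractions (SD, n = 6 each). Single samples ran from 0.28 to 6.90 RPKM, and the ranges of all 4 groups overlapped. Within each sample Akt1 exceeded Akt2. The median ratio of Akt1 to Akt2 was 39.8 in oculomotor neurons (9.03 to 59.2), 10.1 in their GFP-negative fraction (5.28 to 15.9), 7.48 in spinal motor neurons (2.35 to 17.1) and 4.43 in theirs (2.13 to 12.4). The ratios of oculomotor neurons overlapped with those of each other group.

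Pik3ca (ENSMUSG00000027665.13, chromosome 3, 32397671 to 32468486, plus strand) was at 6.83, 13.2, 16.8, 10.7, 10.2 and 12.8 RPKM in replicates 1 to 6 of oculomotor neurons and at 4.06, 6.32, 6.49, 6.20, 3.44 and 5.39 RPKM in the oculomotor GFP-negative fractions of those numbers. All 6 GFP-positive samples lay above all 6 GFP-negative samples. In spinal motor neurons it was at 10.7, 18.1, 18.0, 4.76, 14.6 and 20.9 RPKM, with the lowest value in replicate 4. Spinal GFP-negative samples held 5.57 to 15.2 RPKM (mean 10.1 ± 4.03, SD, n = 6).

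Pik3cb (ENSMUSG00000032462.14, chromosome 9, 99036654 to 99140621, minus strand) was at 0.36, 0.72, 0.98, 0, 0.26 and 0.32 RPKM in replicates 1 to 6 of oculomotor neurons. The 0 is the listed value of replicate 4, in which 3 reads of the gene would have given about 0.327 RPKM. Spinal motor neurons held 1.09, 1.91, 1.45, 2.38, 0.92 and 1.40 RPKM, so that 5 of the 6 oculomotor samples lay below all 6 spinal ones and replicate 3 lay just inside their range. The GFP-negative fractions held 0.55 to 2.09 RPKM in oculomotor and 0.91 to 2.32 RPKM in spinal cultures.

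The balance of the catalytic subunits leaned most to Pik3ca in oculomotor neurons. The ratio of Pik3ca to Pik3cb was 17.2 to 39.8 there (median 19.0, n = 5, without the sample in which Pik3cb is listed at 0). It was 3.11 to 9.62 in the oculomotor GFP-negative fraction (median 4.17), 2.00 to 15.8 in spinal motor neurons (median 11.03) and 2.47 to 8.31 in the spinal GFP-negative fraction (median 7.75, n = 6 each). The 5 oculomotor values lay above all 18 of the other groups. This ratio is a description and was not tested. It rests on few reads of Pik3cb, and how many other pairs of genes separate these samples was not counted.

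Pik3r1 (ENSMUSG00000041417.15, chromosome 13, 101680563 to 101768217, minus strand) was at 0.94, 0.59, 0.47, 2.53, 0.40 and 0.75 RPKM in oculomotor neurons and at 2.94, 0.68, 3.44, 0.61, 3.70 and 4.87 RPKM in spinal motor neurons. Of the spinal samples, replicates 2 and 4 lay in the range of the oculomotor ones and the other 4 above it. The GFP-negative fractions held 0.44 to 1.84 RPKM in oculomotor and 0.16 to 2.77 RPKM in spinal cultures.

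Pdpk1 (ENSMUSG00000024122.16, chromosome 17, 24073680 to 24150924, minus strand), which encodes the kinase that phosphorylates Akt, had a mean RPKM of 2.94 ± 0.78 in oculomotor neurons, 1.92 ± 0.45 in their GFP-negative fraction, 3.57 ± 1.59 in spinal motor neurons and 3.02 ± 0.97 in theirs (SD, n = 6 each). In oculomotor cultures only the GFP-positive replicates 3 and 5, at 2.40 and 2.39 RPKM, reached into the range of the GFP-negative samples, whose highest value was 2.44 RPKM.

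Mtor (ENSMUSG00000028991.15, chromosome 4, 148448611 to 148557683, plus strand) was at 4.97, 9.51, 7.08, 9.44, 5.03 and 5.69 RPKM in oculomotor neurons and at 3.60, 6.17, 3.14, 6.23, 3.16 and 4.29 RPKM in spinal motor neurons. The groups overlapped, with spinal replicates 2 and 4 the highest of theirs. Mtor means were 4.20 ± 0.99 and 4.47 ± 1.71 RPKM in the oculomotor and spinal GFP-negative fractions (SD, n = 6 each).

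Tsc2 (ENSMUSG00000002496.10, chromosome 17, 24595816 to 24632630, minus strand), which restrains mTOR, had means of 6.18 ± 1.82 RPKM (oculomotor neurons) and 6.83 ± 1.94 RPKM (spinal motor neurons), and of 5.16 ± 1.76 and 5.47 ± 3.11 RPKM in the respective GFP-negative fractions (SD, n = 6 each). The ratio of Tsc2 to Mtor was 0.70 to 1.09 in oculomotor neurons and 1.15 to 2.57 in spinal motor neurons, with no overlap between these 12 samples, whereas the GFP-negative fractions (0.80 to 1.95 and 0.68 to 3.43) overlapped with both. This ratio was not tested either, and how many other pairs of genes separate these samples was not counted. The libraries do not mark strand, and Tsc2 overlaps Pkd1 and Mtor overlaps Angptl7 on the opposite strand, so that reads from the shared stretches cannot be told apart.

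**Figure D2:**
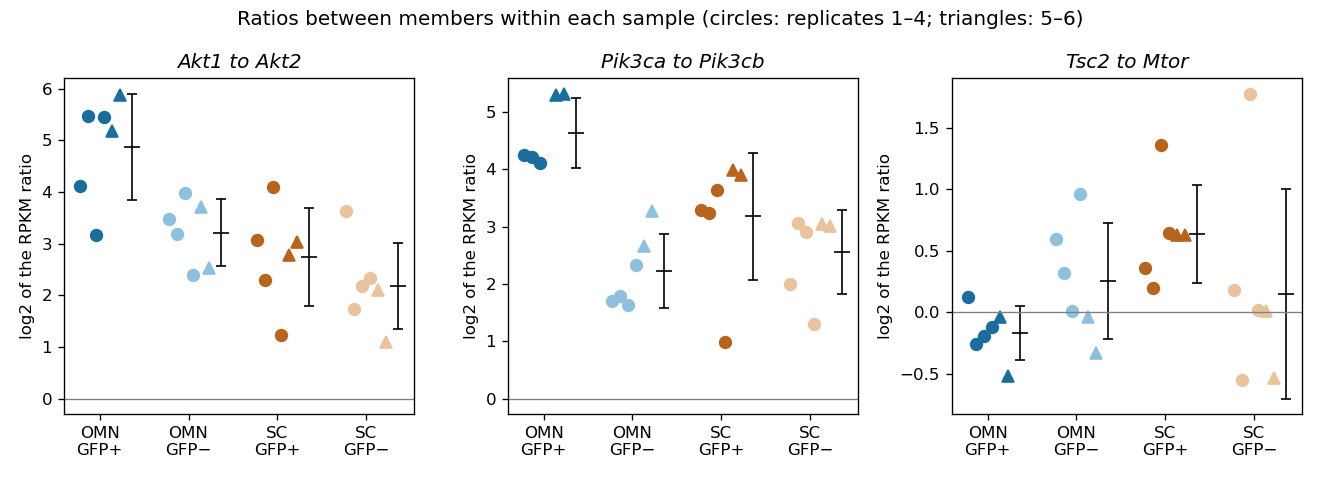
Ratio of the RPKM values of 2 genes within each sample, as log2 (vertical axes, 0 means equal levels), in the 4 groups. Symbols are samples (circles, replicates 1 to 4; triangles, 5 and 6), bars give mean ± SD (n = 6; n = 5 for Pik3ca to Pik3cb in OMN GFP+). Pik3ca to Pik3cb is highest in OMN GFP+, and Tsc2 to Mtor is below 0 there in 5 of 6 samples and above 0 in all 6 SC GFP+ samples.

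Which of these genes distinguished oculomotor from spinal motor neurons was tested in the 12 GFP-positive samples. None of the 8 was called by limma, with 0.603% of 19240 genes called. At an unadjusted p under 0.05 there were 2 of 8, Akt1 and Pik3cb, with 10.1% of all genes below that value. Akt1 was at +1.72 ± 0.61 on the log2 scale in oculomotor against spinal motor neurons (SE, 95% interval 0.41 to 3.03, adjusted p = 0.307 by limma). The difference was 1.85 in replicates 1 to 4 alone and 1.46 in replicates 5 and 6 alone. Pik3cb was at −0.82 ± 0.24 (SE, 95% interval −1.34 to −0.30, adjusted p = 0.201 by limma), with −0.86 in replicates 1 to 4 and −0.73 in replicates 5 and 6. No member had 6 oculomotor samples that were all above or all below the 6 spinal ones, which 1.43% of genes had.

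Exact two-sided permutation tests of single genes, unadjusted, gave p = 0.0325 for Akt1, 0.00433 for Pik3cb, 0.0325 for Mtor and 0.0455 for Pik3r1. The same tests gave 0.827 for Akt2, 0.55 for Pik3ca, 0.506 for Pdpk1 and 0.552 for Tsc2. They were run on the members only, so the share of all genes under 0.05 is not known for them. Mtor was at +0.55 ± 0.29 (SE, adjusted p = 0.556 by limma). Pik3r1 was at −0.84 ± 0.41 (SE, adjusted p = 0.514 by limma), with −0.39 in replicates 1 to 4 and −1.75 in replicates 5 and 6. Neuron markers summed to 1460 to 2124 RPKM (median 1749) in these oculomotor and 87.8 to 2064 RPKM (median 941) in these spinal samples. Without spinal replicate 4 the spinal sums were 457 to 2064 RPKM. Pluripotency markers summed to 0.3 to 259 RPKM in the oculomotor and 14.4 to 12400 RPKM in the spinal samples. The part of neuron and pluripotency markers in the differences was not tested. The 12400 RPKM was in spinal replicate 5, which also had the lowest Akt1 of its group (3.85 RPKM), so leaving out replicate 4 does not remove it. Other genes of the list than Pou5f1 and Zfp42 made up most of that sum. Pou5f1 was at 2.15 and Zfp42 at 14.1 RPKM in spinal replicate 5, against 31.5 and 50.8 RPKM in replicate 4. Without both samples of spinal replicate 4 the difference of Pik3r1 was −1.05 and that of Akt1 1.67, and no member was called. The other 4 genes showed small differences with wide intervals. These were −1.16 to 0.95 for Akt2, −0.94 to 0.53 for Pik3ca, −0.85 to 0.53 for Pdpk1 and −0.72 to 0.47 for Tsc2 (95% intervals on the log2 scale), so that a change of close to 1 unit is inside the interval for Akt2 and Pik3ca.

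Akt1 has a GC content of 59.7% in its longest transcript, at the 95.4th percentile of genes, and its level moved with a GC trend of the libraries. The trend, the log2 level of the quartile of genes richest in GC minus that of the poorest quartile, was −0.45 to 0.95 in replicates 1 to 4 and −0.82 to −0.34 in replicates 5 and 6. Depth also differed between these sets of replicates, so that depth and GC trend cannot be told apart between them. The study used sequencers of different models with different read lengths, and the labels do not say which library ran on which. Over the 24 samples, the Pearson correlation of the trend with the log2 level was 0.75 for Akt1, 0.65 for Akt2 and 0.63 for Tsc2, and between 0.02 and 0.26 for the other 5. With the trend removed, an alternative chosen after the data were seen, Akt1 differed between oculomotor and spinal motor neurons by 1.65 and was called (adjusted p = 0.0439 by limma), as the only member. That fit called 0.867% of 18694 genes.

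**Figure D3:**
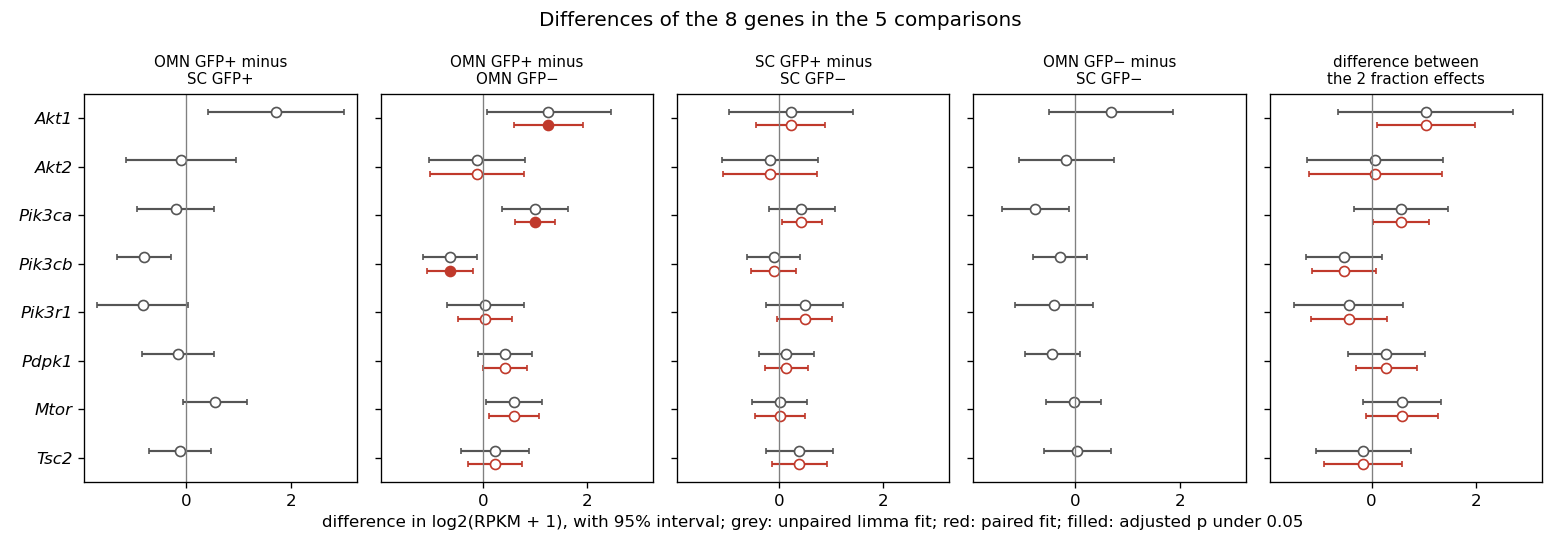
Differences of the 8 genes in log2(RPKM + 1) (horizontal axis) with 95% intervals, in 5 panels for the 5 comparisons. Grey, limma fit without pairs, red (drawn only in the comparisons of fractions and of their effects), fit with the pairs of fractions, filled symbols, adjusted p under 0.05. Filled symbols stand for Akt1, Pik3ca and Pik3cb in the paired comparison of oculomotor fractions.

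Against the GFP-negative cells of oculomotor cultures, oculomotor neurons held more Pik3ca and Akt1 and less Pik3cb in the fit with the assumed pairs. Without the pairs, none of the 8 members was called by limma, with 6.15% of 22179 genes called. At an unadjusted p under 0.05 there were 4 of 8 (Akt1, Pik3ca, Pik3cb and Mtor), with 18.1% of all genes. Pik3ca stood at an adjusted p of 0.0534 in that limma fit. Leaving out each of the 24 samples in turn gave 0.0181 to 0.120, and under 0.05 in only 3 cases, which were 0.0327 without the oculomotor GFP-positive replicate 1, 0.0181 without the spinal GFP-positive replicate 4 and 0.0456 without the spinal GFP-negative replicate 4. With the pairs as a block, 3 of 8 were called, 2 higher and 1 lower, with 16.4% of all genes called, 8.22% higher and 8.21% lower. Pik3ca was the only member whose groups did not overlap, which 6.52% of genes shared.

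Pik3ca rose in the paired fit by 1.00 ± 0.18 on the log2 scale (SE, adjusted p = 0.00198 by limma, higher in 6 of 6 pairs). The step was between 0.63 and 1.33 in single pairs, and leaving out any pair kept the adjusted p between 0.00115 and 0.00968. In replicates 1 to 4 alone it was at 0.88 (adjusted p = 0.0568 by limma) and in replicates 5 and 6 alone at 1.22 (adjusted p = 0.140 by limma). Akt1 rose by 1.26 ± 0.31 (SE, adjusted p = 0.0130 by limma, higher in 6 of 6 pairs). Its step was 1.65 in replicates 1 to 4 alone and 0.48 in replicates 5 and 6 alone, where it was not called (adjusted p = 0.786 by limma with 2 pairs). Without oculomotor pair 2, in which Akt1 was highest, the difference was 1.07 and the adjusted p 0.0519. With the GC trend removed the paired difference of Akt1 was 1.01, and it was called, with 19.0% of all genes called.

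Pik3cb fell by 0.63 ± 0.20 on the log2 scale (SE, adjusted p = 0.0489 by limma, lower in 6 of 6 pairs). This call was at the threshold and was lost without any single oculomotor pair, with adjusted p values of 0.0666 to 0.150, and also without spinal pair 3, 4, 5 or 6, which share the estimate of the spread. In replicates 1 to 4 alone the difference was −0.81 and in replicates 5 and 6 alone −0.27, and neither was called. Mtor was at +0.59 ± 0.23 (SE, adjusted p = 0.0937 by limma) and Pdpk1 at +0.43 ± 0.19 (SE, adjusted p = 0.163), each higher in 6 of 6 pairs and neither called. Mtor was called in a paired fit of the 12 oculomotor samples alone (adjusted p = 0.0482 by limma) and without spinal pair 2 (adjusted p = 0.0288). In all, 5 of 8 members moved in the same direction in 6 of 6 pairs, as did 23.2% of genes.

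The remaining members did not differ detectably between the oculomotor fractions. In the paired fit the 95% interval was −1.01 to 0.80 for Akt2, −0.47 to 0.57 for Pik3r1 and −0.29 to 0.76 for Tsc2. Akt2 was higher in 2 of 6 pairs, Pik3r1 in 4 and Tsc2 in 5.

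**Figure D4:**
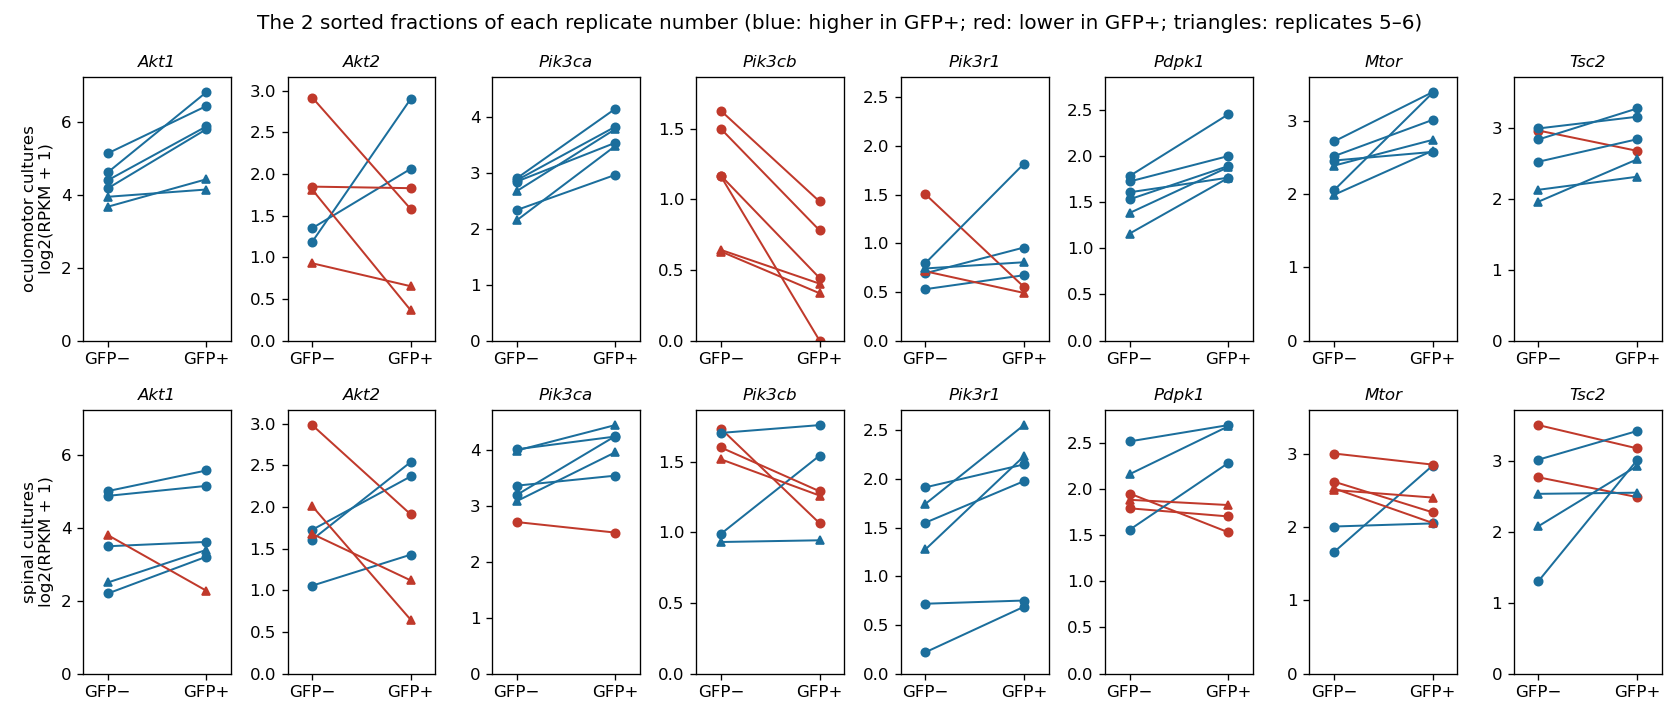
The GFP-negative and the GFP-positive sample of each culture and replicate number, joined by a line, as log2(RPKM + 1) (vertical axes, the same for a gene in both rows). Upper row, oculomotor, lower row, spinal cultures. Lines of Akt1, Pik3ca, Pdpk1 and Mtor all rise (blue) and those of Pik3cb all fall (red) in oculomotor cultures, while in spinal cultures only those of Pik3r1 all rise.

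In spinal cultures no member was called by limma without the pairs, with 1.23% of 22179 genes called, and 0 of 8 had an unadjusted p under 0.05, against 10.4% of all genes. With the pairs none was called either, against 2.93% of all genes, and 1 of 8, Pik3ca, had an unadjusted p under 0.05, against 17.6% of all genes. Pik3ca was at +0.43 ± 0.18 (SE, 95% interval 0.05 to 0.82, adjusted p = 0.223 by limma, higher in 5 of 6 pairs). Pik3r1 was at +0.49 ± 0.24 (SE, 95% interval −0.03 to 1.01, adjusted p = 0.311 by limma) and was the only member that moved in the same direction in all 6 pairs, as 5.06% of genes did. Akt1 was at +0.22 ± 0.31 (SE, 95% interval −0.44 to 0.89, adjusted p = 0.738 by limma), higher in 5 of 6 pairs and lower by 1.53 in the pair of replicate 5. Without both libraries labelled replicate 4, no member was called and the paired differences were 0.56 for Pik3ca (adjusted p = 0.0984 by limma), 0.49 for Pik3r1 (adjusted p = 0.348) and 0.24 for Akt1 (adjusted p = 0.742).

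The GFP-negative fractions of the cultures did not differ in a called member, with 0.96% of 22179 genes called. Pik3ca was the only member with an unadjusted p under 0.05, against 11.3% of all genes. It was at −0.77 ± 0.31 in oculomotor against spinal GFP-negative samples (SE, 95% interval −1.40 to −0.13, adjusted p = 0.318 by limma), and at −0.90 (adjusted p = 0.0658) without both samples of spinal replicate 4. Exact two-sided permutation tests, unadjusted, gave p = 0.00866 for Pik3ca, 0.0152 for Pdpk1 and 0.197 to 0.931 for the other members. They were not run on all genes. Pluripotency markers summed to 684 to 9877 RPKM in the oculomotor and 74.4 to 5785 RPKM in the spinal samples. Without the library labelled replicate 4 the spinal sums were 74.4 to 393 RPKM, below every oculomotor sum. Pou5f1 alone did not separate them, at 1.94 and 1.29 RPKM in oculomotor replicates 5 and 6 and 2.10 RPKM in spinal replicate 2. The part of these markers was not tested. The other 7 members lay between −0.45 (Pdpk1) and 0.68 (Akt1), with adjusted p values from 0.530 to 0.992 by limma.

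Whether the fraction effects differed between the cultures was tested as an interaction. No member was called, with 0.32% of 22179 genes called, nor had any an unadjusted p under 0.05, against 7.13% of all genes. With the pairs there was again no called member, against 2.04% of genes. The Akt1 step between fractions in oculomotor minus that in spinal cultures was 1.04 ± 0.44 on the log2 scale (SE, 95% interval 0.10 to 1.98, adjusted p = 0.267 by limma). For Pik3ca this difference was 0.56 ± 0.25 (SE, 95% interval 0.02 to 1.10, adjusted p = 0.299 by limma), and for Pik3cb it was −0.53 ± 0.29 (SE, 95% interval −1.14 to 0.09, adjusted p = 0.409 by limma). Without both libraries labelled spinal replicate 4 the paired differences were 1.02, 0.44 and −0.50 in the same order, with no member called. The calls in oculomotor and not in spinal cultures are therefore not shown to be a difference between the cultures.

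The surroundings of the members in the pathway were followed with a list of 115 genes, of which 104 other than the members were in the table. Between oculomotor and spinal motor neurons none of the 102 tested was called by limma. There were 5 higher and 5 lower at an unadjusted p under 0.05, which is 9.80% against the 10.1% of all genes, and the median difference was 0.01 against −0.04 over all genes.

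Between the oculomotor fractions 10 of 104 were called by limma without the pairs, which is 9.62% against 6.15% of all genes. Of these, 8 were higher and 2 lower in oculomotor neurons, against 3.81% and 2.34% of all genes. The median difference of the list was 0.07, against 0 over all genes. Among the PI3K subunits, Pik3c2b (a class II catalytic subunit) rose from 1.27 to 2.83 RPKM in GFP-negative to 7.95 to 19.4 RPKM in GFP-positive samples, a log2 difference of 2.32 ± 0.47 (SE, adjusted p = 0.00319). Pik3cd, the catalytic subunit p110δ, rose by 1.61 ± 0.35 (SE, adjusted p = 0.00618), from at most 1.18 to at least 2.43 RPKM. Pik3r3, the regulatory subunit p55γ, rose by 1.72 ± 0.40 (SE, adjusted p = 0.00964).

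The lipid phosphatase Inpp4a rose by 2.86, the autophagy kinase Ulk2 by 1.75, the cell cycle inhibitor Cdkn1a by 1.70 and the adaptor Gab2 by 1.3 (log2 differences, adjusted p from 0.000522 to 0.0355 by limma). Lower in oculomotor neurons were Prr5l, a partner of mTOR complex 2, by a log2 difference of −1.42, and the adaptor Irs4 by −0.63, both at or below 1 RPKM in every oculomotor GFP-positive sample. In oculomotor neurons Ulk2 was at 8.54 to 15.7 RPKM and in their GFP-negative fraction at 2.39 to 3.99 RPKM, without overlap.

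With the pairs 26 of 104 list genes were called in oculomotor cultures, 16 higher and 10 lower, which is 25% against 16.4% of all genes. Those added among the 10 largest of each direction were, on the higher side, Gsk3b (1.60), a kinase that Akt inhibits, and Pik3ip1 (1.10), an inhibitor of PI3K. On the lower side they were Eif4ebp1 (−1.84), Foxo1 (−1.63), Deptor (−1.21), Seh1l (−0.99), Tbc1d1 (−0.91), Rps6 (−0.86), Eif4b (−0.76) and Gab1 (−0.70), as log2 differences. Eif4ebp1, which encodes the translation repressor 4E-BP1, went from 96.0 to 237 RPKM in GFP-negative to 23.3 to 88.4 RPKM in GFP-positive samples, with no overlap. Rps6, a ribosomal protein and substrate of S6 kinase, went from 1390 to 2020 RPKM to 758 to 1270 RPKM. Deptor encodes an inhibitor of mTOR and Foxo1 a transcription factor held in check by Akt.

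In spinal cultures 2 of 104 were called by limma without the pairs, 1.92% against 1.23% of all genes. Pik3cd rose by 1.47 ± 0.35 (SE, adjusted p = 0.0344), from 0.02 to 1.65 RPKM in GFP-negative to 1.19 to 11.3 RPKM in GFP-positive samples, which overlap. Sgk3, a kinase related to Akt, was lower by 0.40 at levels under 1 RPKM in all of these samples. With the pairs Gsk3b was called as well, at 0.93, which made 3 of 104, 2.88% against 2.93% of all genes. Without both libraries labelled spinal replicate 4, there were 4 without the pairs (3.85% against 2.9% of all genes) and 9 with them (8.65% against 5.67%).

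Between the GFP-negative fractions Irs4 (0 RPKM in all 6 spinal samples, up to 2.23 RPKM in oculomotor ones) and Prkaa2, a catalytic subunit of AMP-activated kinase (0.28 to 1.23 against 1.3 to 5.93 RPKM), were called, 1.92% of the list against 0.96% of all genes. In the paired interaction 2 of 104 list genes were called (1.92% against 2.04% of all genes). The step of Ulk2 was larger in oculomotor cultures by 1.24 ± 0.22 on the log2 scale (SE, adjusted p = 0.0111 by limma), and that of Eif4ebp1 was at −1.56 ± 0.35 (SE, adjusted p = 0.0383 by limma). Neither was called without the pairs.

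**Figure D5:**
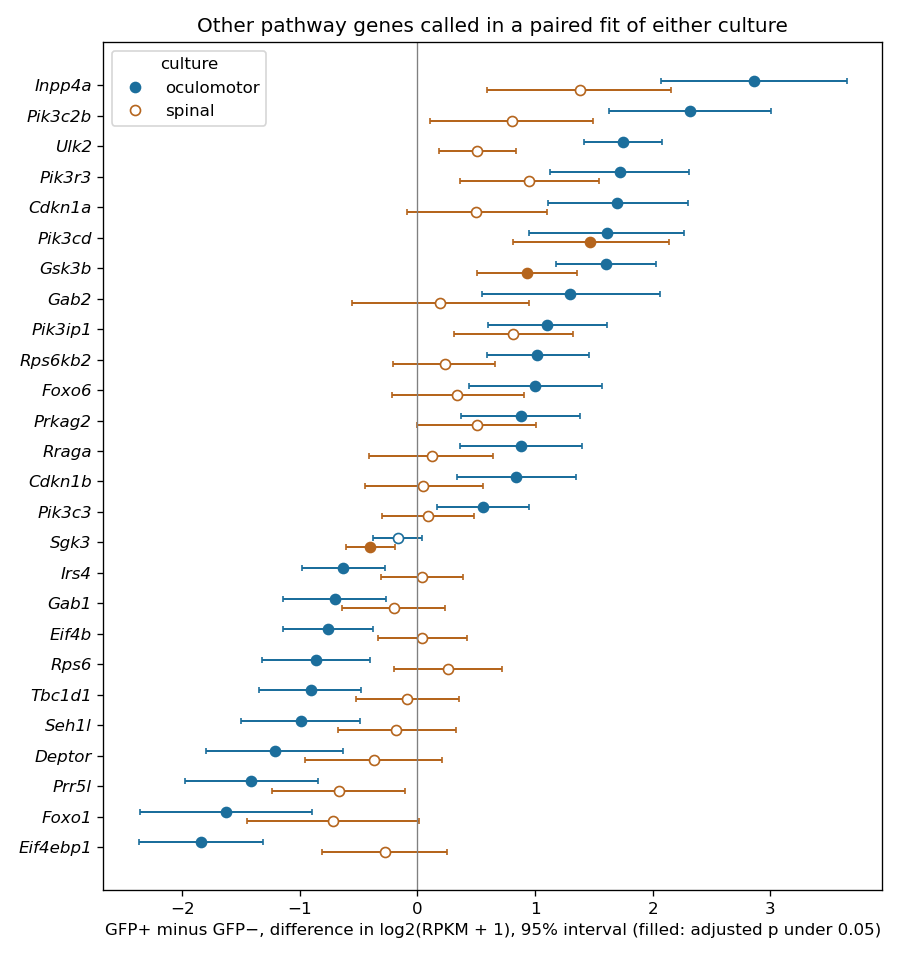
Other genes of the pathway list called in the paired fit of either culture, as difference between GFP-positive and GFP-negative samples in log2(RPKM + 1) (horizontal axis) with 95% intervals. Blue, oculomotor, brown, spinal cultures, filled symbols, adjusted p under 0.05. Pik3cd and Gsk3b are filled in both cultures, Sgk3 in spinal cultures only and the rest in oculomotor cultures only, which is not a test of a difference between cultures.

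As a description of likeness, the genes whose log2 levels followed each member most closely over the 24 samples were listed among 11952 genes with a mean of at least 1 RPKM. For Akt1 they were Cyb5r3 (Pearson r = 0.925), Rtfdc1 (0.905) and Pacs2 (0.889), and for Tsc2 they were Zfp513 (0.908), Ubl7 (0.876) and Dus3l (0.871). Pik3ca was followed by Clcn4 (0.883), Synj1 (0.864) and Spag9 (0.858), Pik3r1 by Abat (0.874), Zfhx4 (0.853) and Adcy2 (0.835), and Pik3cb by Mga (0.852), F11r (0.846) and Cenpv (0.833). Akt2 (Nprl3, 0.789), Mtor (Akap7, 0.805) and Pdpk1 (Nptn, 0.799) had looser companions. Nprl3 is itself a gene of the pathway list, part of the GATOR1 complex that restrains mTOR. Among the members the highest correlations were 0.56 (Pik3ca with Pik3r1), 0.53 (Akt1 with Tsc2) and 0.49 (Mtor with Tsc2), over the same 24 samples of 4 groups, which share libraries of different depth and GC trend.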

How the data were processed

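Transcripts of 24 sorted samples in 4 groups of 6 were measured as RPKM in a single table. Per the submitters' processing notes and methods, the authors aligned reads to mm10 with HISAT2 2.0.3 and computed the deposited RPKM values with rpkmforgenes. The gene annotation was not given in the sources used here. No counts were used, and depth was estimated from the steps between low RPKM values, of which 95.9% to 97.9% came out whole within 2% per sample.

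Values were taken as log2(RPKM + 1), and genes above 0 in at least 2 samples were tested with limma 3.58.1 (R 4.3.3, trended prior, Benjamini-Hochberg adjustment, threshold 0.05). Oculomotor and spinal motor neurons were compared on their 12 samples alone, and the other comparisons came from all 24 together. The pairs of fractions entered as a block in a further fit: the GFP-positive and GFP-negative samples of a number deviated together (every pair's correlation was over 0.1), with no statement of shared cultures in the labels. In comparisons between the cultures the block was the replicate number, which oculomotor and spinal samples merely share. Exact permutation tests were two-sided. The limma fit without pairs was run on simulated data with known changes. The paired fits and the removal of the GC trend were not.

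Genes named were the members, list genes past the threshold (at most the 10 largest per comparison and direction), and the 3 genes most alike in pattern. Members, lists and tests were chosen with earlier results of these data known. Some genes of the list are not reported here. Positions are from GENCODE M21 and promoters from RefSeq, both GRCm38. The alternatives were other offsets, filters, scalings, weights, sample sets and the block.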

Additional observations from a re-analysis of the deposited data

Results flagged for a closer look

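In 3 of 32 combinations of gene and group, 1 sample lay far from the other 5, with a gap to its neighbor that passed Dixon's 95% limit for 6 samples. Chance alone gives this in about 1 of 20 groups. Pik3r1 was at a log2 level of 1.5 in the oculomotor GFP-negative replicate 3 (1.84 RPKM, against 0.44 to 0.74 RPKM in the others). Pik3r1 was at 1.82 in the oculomotor GFP-positive replicate 4 (2.53 RPKM, against 0.40 to 0.94 RPKM). Pdpk1 was at 2.45 in the same sample (4.46 RPKM, against 2.39 to 2.99 RPKM).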

How the results depend on the processing

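Of 1503 member values from other limma fits set against the fits without pairs, in which no member was called and so no call could be lost, 1413 kept their direction and side of the threshold, 24 passed it and 66 changed sign, none of them called. Of 192 values from paired fits without 1 pair, 173 stayed as they were, 11 lost their call (10 of Pik3cb, 1 of Akt1), 1 gained it and 7 changed sign. Of 48 exact tests of single genes, 17 had an unadjusted p under 0.05. The comparisons of fractions enter them both by exchange of groups and by sign flips over 6 pairs. A sign-flip test gives its smallest possible p, 0.0312, to any gene that moves in one direction in all pairs. The exact tests were run on the members only, so no share of all genes stands beside them. The cause of the changes in call or sign was not tested. All samples are few, and Pik3cb and Pik3r1 rest on few reads. Pik3cb could not be tested between oculomotor and spinal motor neurons with a mean of at least 1 RPKM. Alternatives that use the GC trend, leave out spinal replicate 4 or leave out pairs were chosen after the data were seen.

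Members called between oculomotor and spinal motor neurons numbered 1 with the GC trend removed, with (1.05% of all genes called) and without (0.867%) the replicate block. The oculomotor and spinal samples share only a number (correlations from −0.22 to 0.78, 4 of 6 pairs over 0.1), and the block alone called no member there. Between GFP-negative fractions the block without spinal replicate 4 called 1 member, against 6.57% of all genes, Pik3ca (−0.92, adjusted p = 0.00698 by limma). The block there was the replicate number, and the oculomotor and spinal GFP-negative samples also share only that number (correlations from −0.03 to 0.67, 4 of 6 over 0.1).

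Between oculomotor fractions, members called numbered 3 with the replicate block, 4 with the block in that culture alone, 2 with the block and either the GC trend removed or spinal replicate 4 left out, and 1 with the block in replicates 1 to 4. Without the block they numbered 2 with sample weights and 1 with a mean of at least 1 RPKM, the replicate set as covariate, that culture alone, or spinal replicate 4 left out. The share of all genes called was 16.4% with the block, 26.6% in that culture alone, 19.0% with the GC trend removed, 16.8% without spinal replicate 4 and 8.11% in replicates 1 to 4. Without the block it was 17.1% with weights, 12.5% with a mean of at least 1 RPKM, 9.54% with the covariate, 12.6% in that culture alone and 8.36% without spinal replicate 4. Members called ranged from 0 to 1 on leaving out a sample and from 1 to 4 on leaving out a pair in the paired fit. List genes called, 10 as reported, numbered 26 with the block (also without spinal replicate 4), 36 with the block in that culture alone, 29 with the block and the GC trend removed, 0 with the block in replicates 5 and 6 (0.0536% of all genes), 17 with the set as covariate, 28 with weights, 16 at a common median (7.53%), 4 in replicates 1 to 4 (2.27%) and 3 in replicates 5 and 6 (4.74%).

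Between spinal fractions, list genes called, 2 as reported, numbered 0 with an offset of 0.1 RPKM, in either set of replicates, and in that culture alone, each of the last with and without the block. They numbered 1 with a mean of at least 1 RPKM, a common median, quantile normalization or the GC trend removed, 4 with the block and the GC trend removed, 4 without spinal replicate 4 and 9 with the block as well. Leaving out a sample gave 0 to 4 and leaving out a pair 0 to 9. These fits called 0% to 5.67% of all genes, apart from those that left out a sample or a pair. Between GFP-negative fractions, 2 as reported, they numbered 1 with the offset of 0.1, no filter, a mean of at least 1 RPKM, a common median or quantile normalization, 0 in either set of replicates, in these samples alone or with the GC trend removed, 5 with weights, 4 without spinal replicate 4 or with the block and the GC trend removed, and 8 with the block and without spinal replicate 4. Leaving out a sample gave 0 to 3. The fits named here called 0.186% to 6.57% of all genes. In the interaction, 0 as reported, they numbered 2 with the block, 1 with the block and without spinal replicate 4 and 3 with the block and the GC trend removed, against 2.04%, 2.29% and 3.1% of all genes.

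Signs changed as follows, as log2 differences. Between oculomotor and spinal motor neurons Akt2 was at 0.03 in replicates 1 to 4 and 0.07 without spinal replicate 4, with and without the block (leaving out a sample, −0.37 to 0.14). Between oculomotor fractions Akt2 was at 0.27 in replicates 1 to 4 (leaving out a sample −0.38 to 0.14, a pair −0.47 to 0.16), and Pik3r1 at −0.08 in replicates 5 and 6 (−0.13 to 0.19 and −0.14 to 0.25), with and without the block. Between spinal fractions Akt2 was at 0.22 in replicates 1 to 4 (−0.35 to 0.05 and −0.40 to 0.06). Akt1 was at −0.32 in replicates 5 and 6 and −0.27 with weights (leaving out a sample, −0.12 to 0.54). Mtor was at −0.29 in replicates 5 and 6, −0.21 with weights, −0.07 at a common median or with the GC trend removed and −0.09 after quantile normalization (−0.13 to 0.14 and −0.22 to 0.11). Pik3cb ranged from −0.23 to 0.01 on leaving out a pair. Between GFP-negative fractions Mtor was at 0.11 in replicates 1 to 4, 0.09 after quantile normalization or without spinal replicate 4 and 0.08 with the block as well (−0.18 to 0.09). Tsc2 was at −0.26 in replicates 5 and 6, −0.10 with weights and −0.01 with the GC trend removed (−0.21 to 0.23), and Akt2 ranged from −0.42 to 0.06. In the interaction Akt2 was at −0.06 with weights and 0.00 with an offset of 0.1 (−0.20 to 0.31), and Tsc2 ranged from −0.35 to 0.09.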
